A study of Mus musculus with 6 samples.

Results

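A set of 10 astrocyte genes with roles in transport and homeostasis was followed in the hippocampus of mice with an inducible deletion of Ep300 in excitatory neurons and in their controls. They were Slc1a2, Slc1a3, Glul, Aqp4, Gja1, Gjb6, Aldh1l1, S100b, Slc7a10 and Gfap, taken by name as a set and found by matching the Ensembl identifiers of the count table to gene symbols. All 10 were found among the 55471 genes of the table. The set was measured by RNA-seq in 6 libraries, 3 from control mice and 3 from p300-ifKO mice, which carry floxed alleles of Ep300, the gene for the lysine acetyltransferase p300, and the Camk2a-creERT2 driver. Each library came from the hippocampus of 1 male mouse. All the mice were C57BL/6 in the labels (C57BL/6J in the study), were 3 to 6 months old, and received tamoxifen in corn oil (20 mg/ml) through 5 gastric administrations, controls included. The study describes the controls as littermates without the driver, whereas a label on the control libraries names the driver alone. The comparison of both groups asked which genes of the hippocampus changed with the deletion, and is read here in astrocyte transcripts.

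Astrocytes clear glutamate and potassium from the space around synapses, carry water at their endfeet on blood vessels, couple to each other through gap junctions and return glutamine to neurons. When tissue is injured or inflamed they become reactive, a state usually recognized by a rise of the intermediate filament gene Gfap. The Camk2a driver is active in excitatory neurons of the forebrain, so that astrocytes are not among its target cells. The libraries held RNA of whole hippocampal tissue, so that the reads of these genes were not separated by cell type. A lower level from fewer astrocytes, from less RNA per astrocyte or from any other cells that express the gene cannot be told apart.

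Each library held between 23151568 and 28433823 counted reads, and the least covered of the 10 genes, Slc7a10, still had 581 to 763 reads per library. As a check of the labels, Ep300, counted over the whole gene, had 1545, 1474 and 2334 normalized counts in control replicates 1, 2 and 3 and 477.9, 1350 and 912.3 in p300-ifKO replicates 1, 2 and 3. Each p300-ifKO library was thus below each control library, but p300-ifKO replicate 2 lay close to the controls, and the fold change of -0.97 on the log2 scale (SE 0.33) did not pass (DESeq2 Wald test, adjusted p = 0.991). With 1 surrogate variable for unknown variation in the fit, Ep300 did pass, at -0.48 (DESeq2, adjusted p = 0.00127). Esr1, part of whose sequence is carried by creERT2, had 87.2 to 109 normalized counts in the controls and 2416 to 4217 in p300-ifKO. The results were also computed without each library in turn, p300-ifKO replicate 2 among them. What set the Ep300 level of that library was not tested. Normalized counts here are reads divided by the size factor of the library, and a gene was called when its p, adjusted by Benjamini-Hochberg over all genes tested, was under 0.05.

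None of the 10 genes was called. The count was 0 of 10 by DESeq2, against a background of 0.00610% of the 32773 genes tested, and 0 of 10 by the quasi-likelihood test of edgeR, against 0.0117% of 17131 genes. At an unadjusted p under 0.05, 1 of 10 genes passed in DESeq2, where the background was 1.32% in either direction and 0.546% for lower genes, and 1 of 10 in edgeR, where it was 2.30%. This was Slc1a3, lower in p300-ifKO, with both tools. The DESeq2 shares given here and below include genes with few counts, which seldom reach such a p. Of the 32773 genes, 17070 had a mean of at least 10 normalized counts. The edgeR share is of the 17131 genes that passed its filter for expressed genes. The fold changes of the 10 genes ran from -0.25 to 0.17 on the log2 scale, 3 of them positive and 7 negative, with a median of -0.05 beside a median of -0.05 over all genes tested and of -0.01 over the 17070 genes with a mean of at least 10 normalized counts. In the fit of all 6 libraries, the 95% confidence intervals of all 10 genes lay between 0.670-fold and 1.39-fold. In that fit each interval left out a change of 1.5-fold in either direction, and 9 of the 10 held 1. Intervals of the fits with fewer libraries are not given, and there Aqp4 reached -0.33 on the log2 scale without p300-ifKO replicate 2.

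**Figure D1:**
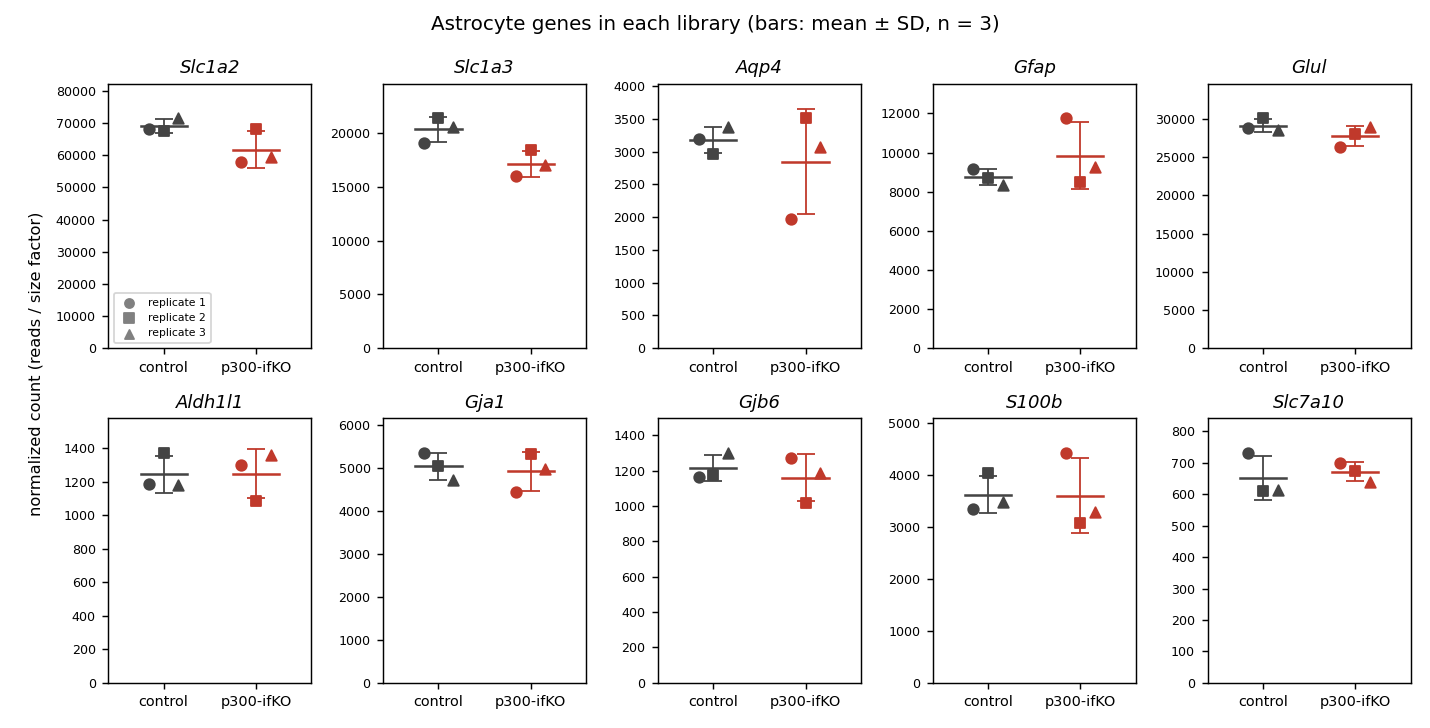
Normalized counts (y axes, each starting at 0) of the 10 astrocyte genes in 3 control and 3 p300-ifKO libraries; each point is 1 library, with the group mean and its SD. The points of both groups overlap for 9 of the 10 genes, and for Slc1a3 the 3 p300-ifKO points, from 16005 to 18413, all sit below the 3 control points, from 19092 to 21391.

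Of the genes of glutamate uptake and glutamine synthesis, Slc1a3 was below the controls in every p300-ifKO library, and Slc1a2 and Glul overlapped with them. Slc1a2 encodes GLT-1, the glutamate transporter that does most of the uptake in the adult forebrain. The gene (ENSMUSG00000005089) lies on the plus strand at chr2:102658659-102790784 of GRCm38. Slc1a2 had 68226, 67575 and 71532 normalized counts in control replicates 1 to 3, a mean of 69111 ± 2122 (SD, n = 3), and 57802, 68192 and 59290 in p300-ifKO replicates 1 to 3, a mean of 61761 ± 5619 (SD, n = 3). Replicates 1 and 3 of p300-ifKO were below all controls, and replicate 2 lay within the control range. The log2 fold change was -0.16 (SE 0.12; DESeq2, adjusted p = 0.991), with a 95% interval from 0.763-fold to 1.05-fold.

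Slc1a3 encodes GLAST, the other main glutamate transporter of astrocytes, and lies on the minus strand at chr15:8634124-8710764 (ENSMUSG00000005360). Slc1a3 had 19092, 21391 and 20593 normalized counts in control replicates 1 to 3 (20359 ± 1168, SD, n = 3) and 16005, 18413 and 17019 in p300-ifKO replicates 1 to 3 (17146 ± 1209, SD, n = 3). It was the only gene of the set whose groups did not overlap, 1 of 10 against a background of 6.64% of all genes tested in either direction and of 3.42% in this direction. The log2 fold change was -0.25 (SE 0.12), or 0.842-fold with a 95% interval from 0.720 to 0.985, and its DESeq2 p was 0.0316 before adjustment and 0.991 after it. The edgeR fit gave it an adjusted p = 0.745. When p300-ifKO replicate 2 was left out, DESeq2 gave Slc1a3 a log2 fold change of -0.30 (adjusted p = 0.0786). The direction was negative under every alternative tried, with values between -0.30 and -0.11, the value nearest 0 being that of the fit with an offset for gene length described below. With that offset the DESeq2 p of Slc1a3 was 0.326 before adjustment and 0.999 after it, so that the low unadjusted p of the main fit was not kept. This was the highest unadjusted p among the alternatives, and the lowest was 0.00876, with 1 surrogate variable (DESeq2).

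Glul encodes glutamine synthetase, which turns the glutamate and ammonia taken up by astrocytes into glutamine, and lies on the plus strand at chr1:153899944-153909723 (ENSMUSG00000026473). Glul had 28825, 30118 and 28504 normalized counts in control replicates 1 to 3 (29149 ± 854, SD, n = 3) and 26394, 28032 and 28970 in p300-ifKO replicates 1 to 3 (27799 ± 1304, SD, n = 3). The groups overlapped, p300-ifKO replicate 3 being above 2 of the 3 controls, and the log2 fold change was -0.07 (SE 0.10; DESeq2, adjusted p = 0.991). Glul was also the steadiest gene of the set, its highest library being 1.14-fold above its lowest. Of its stretches of 50 bases, the read length, 12.6% also occur in another annotated gene, among them the pseudogene Glns-ps1, so that its counts depend in part on how such reads were filtered.

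Both transporters moved together across the libraries, with Pearson's r of 0.87 for the log2 normalized counts of Slc1a2 and Slc1a3 over 6 libraries that share groups and library effects. The log2 ratio of Slc1a2 to Slc1a3 within a library, which does not depend on the size factor, was 1.84, 1.66 and 1.80 in control replicates 1 to 3 and 1.85, 1.89 and 1.80 in p300-ifKO replicates 1 to 3. Its difference between groups was 0.08, or 0.03 without control replicate 2 and 0.12 without control replicate 1 (exact two-sided permutation test, p = 0.2, adjusted p = 0.3 over the 3 ratios computed here; the smallest p that 3 against 3 allows is 0.1). With 3 mice per group this test could not reach 0.05.

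The genes of water transport and gap junctions differed from each other in their spread. Aqp4 encodes the water channel of astrocyte endfeet and lies on the minus strand at chr18:15389496-15410982 (ENSMUSG00000024411). Aqp4 had 3190, 2968 and 3373 normalized counts in control replicates 1 to 3 (3177 ± 203, SD, n = 3) and 1964, 3513 and 3070 in p300-ifKO replicates 1 to 3 (2849 ± 797, SD, n = 3). Replicate 1 of p300-ifKO was the lowest of all libraries and replicate 2 the highest, which gave Aqp4 the widest spread of the set, 1.79-fold. The log2 fold change was -0.16 (SE 0.21; DESeq2, adjusted p = 0.991) and became 0.05 when p300-ifKO replicate 1 was left out.

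Gja1 encodes the main connexin of astrocyte gap junctions and lies on the plus strand at chr10:56377330-56402513 (ENSMUSG00000050953). Gja1 had 5346, 5046 and 4722 normalized counts in control replicates 1 to 3 and 4439, 5328 and 4976 in p300-ifKO replicates 1 to 3. The groups overlapped, and their means of 5038 ± 312 and 4914 ± 448 (SD, n = 3 each) differed by -0.04 on the log2 scale (SE 0.13; DESeq2, adjusted p = 0.991). Gjb6, a second astrocyte connexin, lies on the minus strand at chr14:57123303-57133611 (ENSMUSG00000040055). Gjb6 had 1166, 1175 and 1300.1 normalized counts in control replicates 1 to 3 and 1274, 1016 and 1189 in p300-ifKO replicates 1 to 3. Its groups overlapped as well, with means of 1214 ± 74.96 and 1160 ± 131 (SD, n = 3 each) and a log2 fold change of -0.07 (SE 0.14; DESeq2, adjusted p = 0.991).

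Unlike the 2 glutamate transporters, the 2 connexins did not move together, with r of -0.80 over the 6 libraries. The log2 ratio of Gjb6 to Gja1 within a library was -2.20, -2.10 and -1.86 in control replicates 1 to 3 and -1.80, -2.39 and -2.06 in p300-ifKO replicates 1 to 3. The group difference was -0.03 (exact two-sided permutation test, p = 1), and the p300-ifKO values reached past the controls at both ends.

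Among the genes of metabolism, calcium binding and amino acid exchange, Aldh1l1 encodes a folate-metabolizing dehydrogenase widely used to mark astrocytes and lies on the plus strand at chr6:90486427-90600203 (ENSMUSG00000030088). Aldh1l1 had 1183, 1371 and 1179 normalized counts in control replicates 1 to 3 and 1302, 1084 and 1358 in p300-ifKO replicates 1 to 3. The means of 1244 ± 110 and 1248 ± 145 (SD, n = 3 each) gave a log2 fold change of 0.00 (SE 0.15; DESeq2, adjusted p = 0.997), with a 95% interval from 0.820-fold to 1.23-fold. Of its exonic bases, 13.4% overlap Gm15756 on the opposite strand or Gm45901, and the strand setting of the counting is not given in the sources used here.

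S100b encodes a calcium-binding protein of astrocytes and lies on the plus strand at chr10:76253853-76261159 (ENSMUSG00000033208). S100b had 3350, 4033 and 3491 normalized counts in control replicates 1 to 3 and 4428, 3081 and 3293 in p300-ifKO replicates 1 to 3. Replicate 1 of p300-ifKO was the highest library and replicate 2 the lowest, and the means of 3625 ± 361 and 3601 ± 724 (SD, n = 3 each) differed by -0.01 on the log2 scale (SE 0.18; DESeq2, adjusted p = 0.997). S100b stood at -0.21 with 1 surrogate variable and at -0.15 with an offset for length, neither of which passed in DESeq2 after adjustment, while the first was at an unadjusted p under 0.05. Slc7a10 encodes a transporter of small neutral amino acids, D-serine included, and lies on the plus strand at chr7:35186385-35201114 (ENSMUSG00000030495). Slc7a10 had 731.8, 610.4 and 612.3 normalized counts in control replicates 1 to 3 and 700.3, 674.2 and 639.4 in p300-ifKO replicates 1 to 3. All 3 p300-ifKO libraries lay inside the control range, and the log2 fold change was 0.04 (SE 0.14; DESeq2, adjusted p = 0.991), with a range from 0.00 to 0.14 when control replicate 2 or control replicate 1 was left out. Of its exonic bases, 17.9% overlap Lrp3 on the opposite strand.

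Gfap, the intermediate filament gene whose rise is the usual sign of reactive astrocytes, lies on the minus strand at chr11:102887336-102900912 (ENSMUSG00000020932). Gfap had 9154, 8725 and 8355 normalized counts in control replicates 1 to 3 (8745 ± 400.3, SD, n = 3) and 11763, 8485 and 9268 in p300-ifKO replicates 1 to 3 (9838 ± 1712, SD, n = 3). Replicates 1 and 3 of p300-ifKO were above all controls, whereas replicate 2 fell within the control range. The log2 fold change was 0.17 (SE 0.16; DESeq2, adjusted p = 0.991), with a 95% interval from 0.911-fold to 1.39-fold. Leaving out p300-ifKO replicate 1 brought this value to 0.02, and leaving out p300-ifKO replicate 2 brought it to 0.27 (DESeq2, adjusted p = 0.170). Relative to the mean log2 level of the other 9 genes in the same library, Gfap stood at 0.86, 0.76 and 0.72 in control replicates 1 to 3 and at 1.33, 0.80 and 0.93 in p300-ifKO replicates 1 to 3, where again the groups overlapped and p300-ifKO replicate 1 stood highest.

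**Figure D2:**
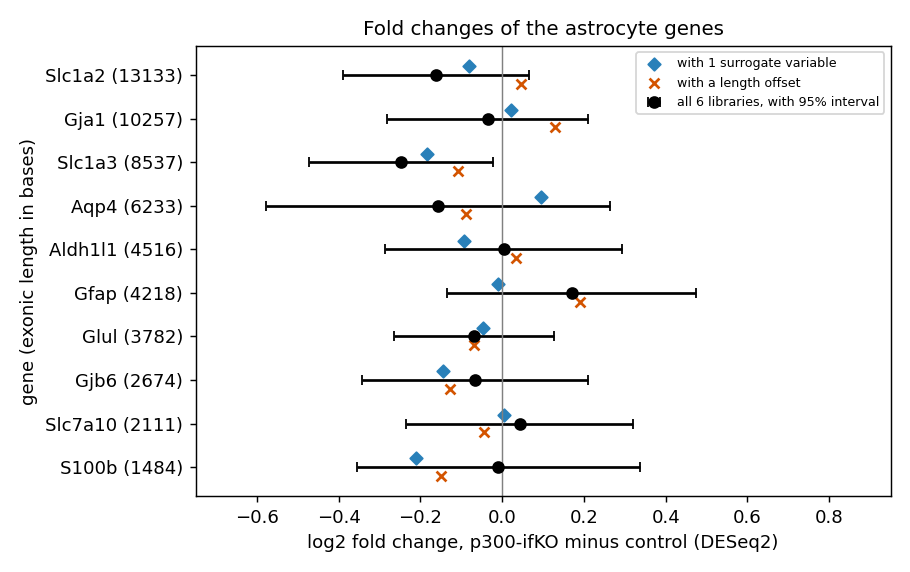
Log2 fold changes of the 10 astrocyte genes (x axis, p300-ifKO minus control, DESeq2), ordered by exonic length; circles with bars are the fit of all 6 libraries with its 95% confidence interval, diamonds the fit with 1 surrogate variable and crosses the fit with a length offset. The circles run from -0.25 for Slc1a3 to 0.17 for Gfap, and the interval of Slc1a3 is the only one of the 10 that does not hold 0.

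The start regions of 3 of these genes are shown, those of Slc1a2 and Slc1a3 because both transporters moved together and that of Gfap because it stood opposite to them, with r of -0.83 to Slc1a2 and -0.78 to Slc1a3 over the same 6 libraries. Each sequence is the 250 bases before the RefSeq transcription start in GRCm38.p6, read 5′ to 3′ on the strand of the gene, from chr2:102706188-102706437 (plus strand), chr15:8710808-8711057 (minus strand) and chr11:102897201-102897450 (minus strand). The windows of Slc1a2 and Gfap lie inside the annotated genes, which include transcripts that start further upstream. Capitals mark matches to the motifs searched.
Slc1a2: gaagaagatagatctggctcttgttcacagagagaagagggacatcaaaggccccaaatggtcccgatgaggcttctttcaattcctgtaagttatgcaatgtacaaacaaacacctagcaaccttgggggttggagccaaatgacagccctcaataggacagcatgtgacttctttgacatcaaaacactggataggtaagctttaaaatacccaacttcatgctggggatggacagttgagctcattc
Slc1a3: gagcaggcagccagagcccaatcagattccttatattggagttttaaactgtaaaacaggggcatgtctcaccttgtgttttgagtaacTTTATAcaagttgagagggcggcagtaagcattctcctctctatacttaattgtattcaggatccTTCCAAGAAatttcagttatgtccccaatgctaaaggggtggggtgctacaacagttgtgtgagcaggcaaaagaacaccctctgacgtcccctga
Gfap: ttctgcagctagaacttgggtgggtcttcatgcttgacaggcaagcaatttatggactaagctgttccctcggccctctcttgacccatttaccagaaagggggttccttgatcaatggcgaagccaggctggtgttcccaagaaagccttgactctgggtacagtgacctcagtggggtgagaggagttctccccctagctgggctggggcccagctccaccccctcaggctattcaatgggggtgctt
On both strands, the STAT motif TTCNNNGAA, the AP-1 motif TGANTCA, the CRE motif TGACGTCA, the TATA motif TATAAA and the nuclear factor I motif (TTGGC, 5 bases of any kind, GCCAA) were searched in the 9 genes of the set used from the promoter table. Slc1a3 held the STAT motif 96 bases before the start, as did 7.02% of 32851 promoters, and the TATA motif on the opposite strand 161 bases before the start, as did 12.4%. Gja1 held the AP-1 motif 19 bases before the start, as did 6.75% of promoters, and none of the 9 held the CRE motif (1.55% of promoters) or the nuclear factor I motif (0.0365%). No motif was found in the windows of Slc1a2 and Gfap, which says only that these letters were not in them.

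Levels were compared between genes as TPM, in which counts are divided by the exonic length given in the count table and scaled to the same total in every library. Glul was highest, with a mean of 1133 TPM over the 6 libraries and a range from 939.6 to 1186, followed by Slc1a2 with 751.6 TPM (592.5 to 855.7). S100b, Slc1a3 and Gfap followed with 363.9, 331.3 and 329.2 TPM, and the library ranges of these neighbours overlapped, so that their order was not resolved. Below a gap of 4.49-fold came Aqp4, Gja1 and Gjb6 with 73.3, 73.1 and 66.6 TPM, again with overlapping ranges, and then Slc7a10 and Aldh1l1 with 47.1 and 41.4 TPM, whose ranges overlapped with each other but not with that of Gjb6. All 10 levels stood between the 64.1 and the 99.5 percentile of the 12253 genes with a mean of at least 100 normalized counts.

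**Figure D3:**
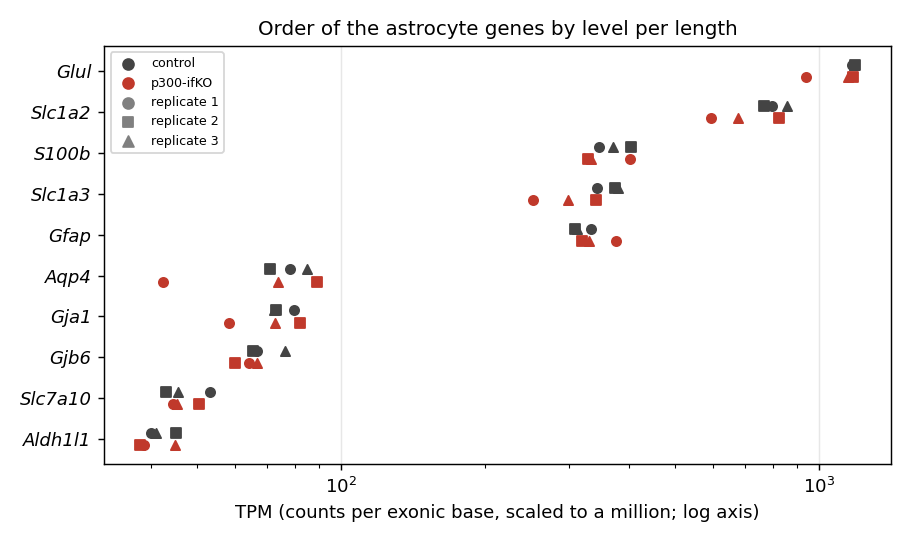
Level of the 10 astrocyte genes in TPM (log axis) by library, in the order of their means; points are the 3 control and the 3 p300-ifKO libraries. Glul and Slc1a2 stand above the rest with means of 1133 and 751.6, and a gap separates Gfap, at 329.2, from Aqp4, at 73.3.

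Added up within a library, the reads of the 10 genes made up 0.563%, 0.562% and 0.577% of all counted reads in control replicates 1 to 3 and 0.507%, 0.549% and 0.527% in p300-ifKO replicates 1 to 3. The 95% Wilson interval of each share extended by about 0.003 percentage points to either side and covers counting error only. Each p300-ifKO library was below each control library, with means of 0.567% ± 0.00834 and 0.527% ± 0.0207 (SD, n = 3 each). Without Slc1a2 the shares still did not overlap (0.289% to 0.297% in controls against 0.275% to 0.285%). That smaller sum still held Slc1a3, the only gene of the set whose own groups did not overlap. A sum without both transporters was not computed, so that a drop shared by the other genes is not shown. Among single genes, 3.42% of all those tested were lower without overlap. As TPM the sums were 3305, 3336 and 3420 in control replicates 1 to 3. They were 2810, 3305 and 3089 in p300-ifKO replicates 1 to 3, where replicate 2 (3305.32) lay just above the lowest control (3304.68). The log2 ratio of the group means was -0.13 for the summed TPM and -0.11 for the share of reads. TPM divides by a fixed length for each gene, and so does not take out a gradient with length that differs between libraries, described below. No test is given for these sums, since their genes were chosen as a set with earlier results known.

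The 10 genes did not rise and fall together across mice. Replicate 1 of p300-ifKO held the lowest value of 5 genes (Slc1a2, Slc1a3, Aqp4, Glul and Gja1) and the highest of another 2 (Gfap and S100b), and p300-ifKO replicate 2 held the lowest value of 3 (Aldh1l1, Gjb6 and S100b). The strongest opposition was between Aqp4 and Gfap, with r of -0.96 over the 6 libraries, and Aqp4 and S100b followed with -0.86. These correlations share the same 6 libraries and are given without a test. The median spread of the 10 genes over the libraries, highest over lowest, was 1.27-fold beside 1.42-fold for the genes with a mean of at least 100 normalized counts.

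Transcript length moved with these deviations. In p300-ifKO replicate 1 the deviation of each of the 10 genes from its own mean fell with exonic length (Spearman's rho = -0.73 across the 10 genes, which are not independent replicates), in p300-ifKO replicate 2 it rose (rho = 0.65), in p300-ifKO replicate 3 it was -0.18, and in the controls rho lay between 0.20 and 0.42. Over 17071 genes the same libraries showed rho of -0.50, 0.42 and -0.28, against 0.16 to 0.41 in the controls, so that a gradient with length was also present outside the astrocyte genes. Among the 12253 genes with a mean of at least 100 normalized counts, those with exonic lengths up to 2000 bases had a median log2 fold change of 0.28 and those over 8000 bases one of -0.16. The 3 genes of the set over 8000 bases were Slc1a2, Slc1a3 and Gja1, whose fold changes of -0.16, -0.25 and -0.04 were 0.05, -0.11 and 0.13 when a smooth offset for length was fitted in each library. The offset took out this gradient only in part, leaving a median of 0.14 in the shortest genes and of 0.01 in the longest, and the part of length in the result of each gene was not tested further.

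**Figure D4:**
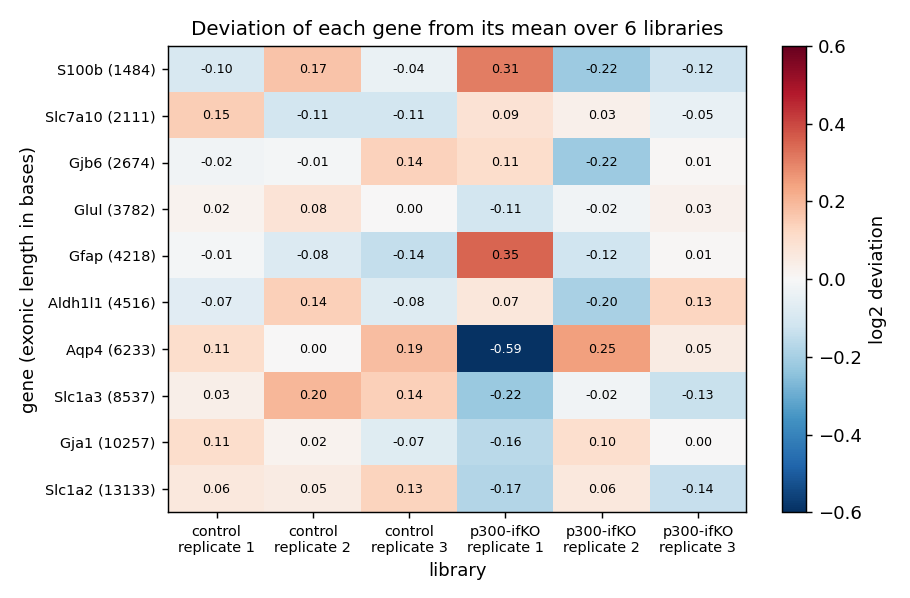
Deviation of each of the 10 astrocyte genes from its mean over the 6 libraries (color and printed value, log2 scale); rows are genes ordered by exonic length in bases, columns are libraries. In p300-ifKO replicate 1 the short gene S100b and Gfap are high and the 4 longest genes low, Aqp4 lowest at -0.59, whereas in p300-ifKO replicate 2 Aqp4 is at 0.25 and S100b at -0.22.

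Other astrocyte genes were read from the same fit in 4 groups. Of 10 genes of glutamate and amino acid transport, 0 were called, 3 were positive and 7 negative, and the median log2 fold change was -0.12. The extremes were Slc38a5, a glutamine transporter, at 0.39 and Slc1a5, a transporter of neutral amino acids, at -0.53, the latter being the only one of the 10 at an unadjusted p under 0.05 in DESeq2. Of 12 genes of potassium, water and ion balance, 0 were called, 9 were negative, the median was -0.06, and the most negative value was -0.36 for Slc4a4, a sodium bicarbonate cotransporter. In edgeR 0 genes of either group were called and 1 in each was at an unadjusted p under 0.05. Slc4a4 had 4967 ± 558 normalized counts in controls and 3858 ± 684 in p300-ifKO (SD, n = 3 each; DESeq2, adjusted p = 0.991). Without p300-ifKO replicate 2, when 7.90% of 11726 genes were called, Slc4a4 was called at -0.47 (DESeq2, adjusted p = 0.0467).

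Of 15 genes of junctions, metabolism and nutrient transport, 0 were called, 8 were positive and 7 negative, and the median was 0.03, with extremes of 0.28 for Fabp7, a fatty acid binding protein, and -0.65 for Gjb2, a connexin. Of 22 astrocyte identity genes, 0 were called, 12 were positive and 10 negative, and the median was 0.03, with extremes of 0.39 for Id3, an inhibitor of basic helix-loop-helix factors, and -0.36 for Mertk, a phagocytic receptor. At an unadjusted p under 0.05 in DESeq2, where the share of all genes was 1.32% and 0.546% for lower genes, there was 1 lower gene among the 15 (Gldc) and 2 lower genes among the 22 (Mertk and Fam107a), and edgeR (2.30% of all genes) gave the same counts of 1 and 2 and called 0. In the 4 groups, in the order given, 2, 1, 2 and 3 genes were lower without overlap and 0 were higher without overlap. Of all genes tested, those with few counts included, 3.42% were lower without overlap. Without p300-ifKO replicate 2, 7.90% of the 11726 genes with an adjusted p in that fit were called. The calls were Tjp1 at -0.69 in the first of these groups and Mertk at -0.53, Id3 at 0.61 and Apoe at 0.47 in the second (DESeq2, adjusted p from 0.0203 to 0.0463). Of the 10 astrocyte genes followed here, 0 were called. The p300-ifKO libraries left in that fit were those whose deviations fell with length over all genes (rho of -0.50 and -0.28, against 0.16 to 0.41 in the controls), and the lower genes Slc4a4, Tjp1 and Mertk had exonic lengths of 11333, 7811 and 4336 bases, whereas the higher genes Apoe and Id3 had 2138 and 1791. The part of length in these calls was not tested. Gldc, Fam107a, Tjp1 and Apoe were named after their values were seen.

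Reactivity was read from 3 further groups, which hold genes known to rise in all reactive astrocytes, after inflammation (A1) or after ischemia (A2). None of them had a gene called by DESeq2 or edgeR. The shared group had 6 positive and 6 negative genes of 12 and a median of -0.01, with extremes of 0.16 for Vim, the filament partner of Gfap, and -0.64 for Cd44, a hyaluronan receptor, among those with a mean of at least 50 normalized counts. Of the A2 group of 12 genes, 6 were positive and 6 negative, the median was 0.01, and the values ran from 0.11 for S100a10 to -0.34 for Ptgs2 under the same minimum. The A1 group had 6 positive and 5 negative genes of 11 and a median of 0.06. Its extremes were 0.75 for H2-D1, a class I histocompatibility gene, and -0.66 for Fbln5, a matrix protein. Its other positive genes were Psmb8 at 0.56, Gbp2 at 0.49, Iigp1 at 0.38, H2-T23 at 0.35 and Fkbp5 at 0.06. Its other negative genes lay between -0.21 (Ggta1) and -0.04 (Srgn). At an unadjusted p under 0.05 in DESeq2 (1.32% of all genes) the shared group had 1 higher and 1 lower gene, Cxcl10 and Cp. The A1 group had 2 higher (H2-D1 and Psmb8) and 1 lower (Fbln5), and the A2 group 0. In edgeR, which tested 10 of 12, 11 of 11 and 10 of 12 genes, the counts were 1, 2 and 0 (2.30% of all genes). Cxcl10 was at 1.20, with means of 13.2 normalized counts in controls and 30.6 in p300-ifKO, and Cp was at -0.48. Groups did not overlap for 1 higher and 1 lower gene in the shared group, the same in A1, and 1 higher in A2 (6.64% of all genes tested). The A2 gene was Tgm1, with means of only 3.74 normalized counts in controls and 6.01 in p300-ifKO, and edgeR did not test it. Apart from the extremes, these genes were named after their values were seen.

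H2-D1 had 1105, 801.6 and 883.7 normalized counts in control replicates 1 to 3 and 1863, 1042 and 1774 in p300-ifKO replicates 1 to 3. Replicates 1 and 3 of p300-ifKO were above all controls and replicate 2 was within their range, and the log2 fold change was 0.75 (SE 0.24; DESeq2, adjusted p = 0.991). Leaving out p300-ifKO replicate 2 brought H2-D1 to 0.97 (DESeq2, adjusted p = 2.535e-05). Class I genes are expressed by microglia and endothelium too, and the 7 microglia markers had a summed level of 635.4 to 691.7 TPM in controls and of 697.9 to 855.2 TPM in p300-ifKO, with 5 of the 7 positive. Leaving out p300-ifKO replicate 2, the complement genes C1qa and C1qb of that list were called at 0.70 and 0.67 (DESeq2, adjusted p = 0.0111 and 0.0203), as was the endothelial junction gene Cldn5 at 0.51 (DESeq2, adjusted p = 0.0366). These 3 genes are short too, with exonic lengths of 1040, 1088 and 1416 bases. With all libraries, 2 of the 5 endothelium markers were positive and 3 negative, with a median of -0.06. Cldn5 was at 0.35 and Ly6c1 at 0.22, whereas Pecam1 was at -0.19, Flt1 at -0.16 and Slco1a4 at -0.06. Class I genes also share sequence among themselves, so that the reads of H2-D1 are uncertain. The part of microglia and endothelium in the level of H2-D1 was not tested.

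The markers of other cells were compared in the same way. Median log2 fold changes were -0.01 for 7 excitatory neuron markers, -0.06 for 6 interneuron markers, 0.16 for 7 oligodendrocyte markers, -0.21 for 5 oligodendrocyte precursor markers, 0.11 for 7 microglia markers and -0.06 for 5 endothelium markers. They were 0.44 for 5 ependyma markers, 0.39 for 5 choroid plexus markers, -0.02 for 5 neural stem cell markers and -0.25 for 4 blood markers. None of these genes was called by DESeq2 or edgeR, and at an unadjusted p under 0.05 in DESeq2 there were 3 (Neurod2, C1qa and C1qb, named after their values were seen; 1.32% of all genes) and in edgeR 2 (2.30%). Without p300-ifKO replicate 2, 7.90% of the 11726 genes with an adjusted p in that fit were called. The calls among these markers were Neurod2, a transcription factor of excitatory neurons, at 0.42 (DESeq2, adjusted p = 0.0276), and the C1qa, C1qb and Cldn5 values given above. Choroid plexus markers differed most between libraries of the same group, with a summed level of 18.3 to 384.5 TPM in controls and of 98.9 to 582.0 TPM in p300-ifKO. The part of these cells in the levels of the 10 astrocyte genes was not tested.

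**Figure D5:**
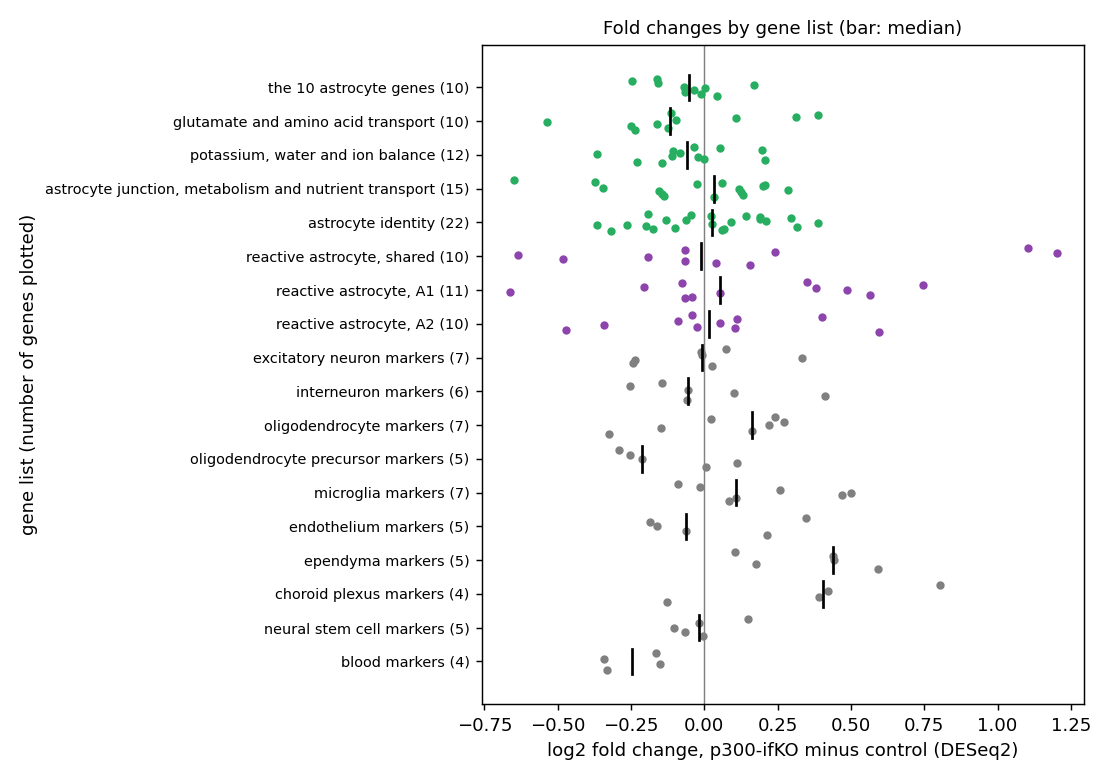
Log2 fold changes (x axis, p300-ifKO minus control, DESeq2) of genes with a mean of at least 10 normalized counts, 1 point per gene, grouped by list, with the number plotted in parentheses and the median as a bar. The medians of the astrocyte and reactive groups lie between -0.12 and 0.06, near that of the 10 astrocyte genes at -0.05.

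Across the 12253 genes with a mean of at least 100 normalized counts, those whose pattern over the 6 libraries was most like the mean standardized pattern of the 10 genes were Loxl3, Jun, Nat8f4, Dpm1 and Wdr82, with Pearson's r of 0.98, 0.97, 0.97, 0.97 and 0.96. The 10 genes themselves had r between -0.37 (Gfap) and 0.76 (Slc1a3) with that mean. All these values rest on 6 libraries that share groups and size factors, and carry no test.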

How the data were processed

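Total hippocampal RNA was sequenced in 6 libraries as single-end reads of 50 bases. The authors trimmed the reads and aligned them to GRCm38 (mm10), and the tools named in the notes of the submitters are Trim Galore 0.6.4, FastQC 0.11.8, STAR 2.6.1 and DESeq2 1.30.1. Reads with a mapping quality over 10 were kept and assigned to exons of an Ensembl annotation with Rsubread, and the authors deposited 1 table of raw counts per gene with an exonic length. Such a filter drops most multi-mapping reads and so reduces the counts of genes with near-identical copies. Whether strand was used in counting is not given in the sources used here. Groups were taken from the sample labels, and all the columns of the table were assigned to a library (0 left unused). Of 55471 identifiers, 55230 (99.57%) matched GENCODE M21, from which symbols and positions were taken.

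Counts were fitted with DESeq2 1.42.0 in R 4.3.3, with a two-sided Wald test between 3 control and 3 p300-ifKO libraries, and p-values were adjusted over all genes. edgeR 4.0.16, sva 3.50.0 with 1 surrogate variable, an offset for length from mgcv 1.9.3, other factors and filters, a block for the replicate number and fits without 1 library at a time were the alternatives. The scripts were tested on simulated data with 200 changed genes. Ratios used a pseudocount of 1 and exact permutation tests over libraries. Promoter windows came from RefSeq, in which 9 of the 10 genes were used. Each library came from 1 mouse, a male in the description of the study, so that the spread between libraries includes that between mice. The 10 genes, the gene lists and the rule for naming genes (from each astrocyte or reactive list, the most positive and most negative with a mean of at least 50 normalized counts and any called, the 5 most alike genes, Ep300 and Esr1) were chosen with earlier results of these data known. 1 gene that this rule names is not reported here.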

Additional observations from a re-analysis of the deposited data

How the results depend on the processing

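Of 140 values of the 10 fold changes under alternatives, 120 kept their direction, 20 reversed, and none passed an adjusted p under 0.05. Among the 14 alternatives per gene, DESeq2 without its filter on low counts cannot alter a fold change. Its values are part of the 120, and their direction was fixed in advance. Slc1a3 (-0.30 to -0.11) and Glul (-0.10 to -0.03) kept their direction under every alternative. The log2 fold changes that reversed with all libraries in the fit were, with the length offset, Slc1a2 at 0.046, Gja1 at 0.13 and Slc7a10 at -0.045. With 1 surrogate variable they were Aqp4 at 0.094, Gfap at -0.0097, Aldh1l1 at -0.093 and Gja1 at 0.022, and S100b, at -0.21 with that variable and -0.15 with the length offset, was at 0.0026 both with TMM factors in DESeq2 and in edgeR without a filter. Leaving out 1 library gave ranges of -0.33 to 0.050 for Aqp4, -0.061 to 0.099 for Aldh1l1, -0.095 to 0.031 for Gja1, -0.14 to 0.024 for Gjb6, -0.19 to 0.094 for S100b and 0.00057 to 0.14 for Slc7a10. The median of the 10 genes was -0.064 with the surrogate variable and ran from -0.072 without p300-ifKO replicate 3 to -0.024 without p300-ifKO replicate 2. The cause was not tested.

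The number of genes called over the whole table was 2 with all libraries and ran from 2 to 926 when 1 library was left out, the highest value being without p300-ifKO replicate 2. Without that library the calls in the groups of other astrocyte genes rose from 0 to 1 for potassium, water and ion balance, to 1 for junctions, metabolism and nutrient transport, to 3 for identity and to 1 for A1 genes, and stayed at 0 for the others and for the 10 genes themselves. The group difference of the Slc1a2 to Slc1a3 ratio ran from 0.03 without control replicate 2 to 0.12 without control replicate 1, and that of the Gjb6 to Gja1 ratio from -0.17 without p300-ifKO replicate 1 to 0.12 without p300-ifKO replicate 2.

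With the replicate number as a block (replicate block), 4 genes were called over the table and 0 of the 10. Deviations from the group means of libraries with the same number had correlations of 0.27, -0.28 and 0.13 over 17071 genes, so that the numbers were not taken to pair the mice. With 3 libraries per group the adjusted threshold was not passed by a difference as large as that of H2-D1 (1.68-fold, SE 0.24 on the log2 scale). The SE of the 10 genes ran from 0.10 (Glul) to 0.21 (Aqp4), so that H2-D1 does not give the limit for them. Small differences of the 10 genes may still go uncalled.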
